A study of Mus musculus with 6 samples.

Results

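The 36 genes described here are immediate early and heat shock genes, chosen by a list of gene symbols. The rule itself uses no measured value, but the list was drawn up with earlier results of these data known. All 36 were found among the 11736 genes of the deposited files: 29 immediate early genes and 7 heat shock genes. RNA was sequenced from gonadal somatic cells of C57BL/6 mice at E11.5, all XY, in 3 Cdyl-KO libraries (homozygous deficiency of Cdyl) and 3 Cdyl-Het libraries (heterozygous deficiency). No wild-type group was analysed here. Every sample also carried Nr5a1-hCD271, and cells positive for hCD271 were collected from the gonads with magnetic beads (MACS) before RNA extraction. The sources used here do not state the form of the Cdyl mutation, the number of embryos or litters behind a library, or the time taken to isolate the cells. Nothing in the labels says that replicates came from separate embryos, so p-values speak only to variation among these 6 samples, and that variation may be technical. Levels are in scaled RPKM, which are read counts relative to gene length and library depth, scaled again between libraries, and library values are given in the order of replicates 1, 2 and 3.

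Immediate early genes are transcribed within minutes of a stimulus by factors already present in the cell, such as the serum response factor SRF and CREB, downstream of MAP kinases. Their mRNAs are short-lived, and many encode transcription factors (FOS, JUN and EGR proteins) or inhibitors that end the response. They respond to growth factors and also to the handling of tissue during cell isolation. Heat shock genes encode chaperones, which help proteins to fold, and many are driven by the factor HSF1 through heat shock elements, made of inverted repeats of GAA.

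Promoters are shown first, since both kinds of gene are known to be regulated through short elements near their start sites. RefSeq windows of 300 bases around a start site (GRCm38.p6) were matched for 30 of the 36 genes, Cyr61 under the symbol Ccn1. The heat shock element core GAANNTTC, searched on both strands, was found for 5 of the 6 heat shock genes with a window (Hspa1a, Hspa1b, Hspb1, Hsph1 and Dnaja1), for 2 of 24 immediate early genes (Jun and Fosl2) and in 7.86% of all 32851 windows. Hspa1a and Hspa1b, which encode the inducible HSP70, and Hspb1, which encodes the small chaperone HSP25, are shown to set a near-identical gene pair beside an unrelated promoter with the same element. The stretches run 5′ to 3′ on the gene's strand, between bases -200 and -51 relative to the start, with the core in capitals. They lie at chr17:34972207-34972356 (minus strand), chr17:34959289-34959438 (minus strand) and chr5:135887719-135887868 (plus strand).
Hspa1a: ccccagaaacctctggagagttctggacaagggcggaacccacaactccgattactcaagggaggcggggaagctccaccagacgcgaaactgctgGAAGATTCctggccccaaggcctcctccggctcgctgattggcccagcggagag
Hspa1b: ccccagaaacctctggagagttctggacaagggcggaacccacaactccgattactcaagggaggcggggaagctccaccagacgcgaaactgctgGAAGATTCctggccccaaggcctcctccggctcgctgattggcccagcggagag
Hspb1: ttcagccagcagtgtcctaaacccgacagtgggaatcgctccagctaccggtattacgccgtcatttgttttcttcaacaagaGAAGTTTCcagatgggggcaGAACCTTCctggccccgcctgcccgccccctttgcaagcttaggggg

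Hspa1a and Hspa1b were identical at 150 of 150 positions shown. Hspb1 held 2 copies of the core and the HSP70 genes held 1 each. The cAMP response element TGACGTCA, which CREB binds, was found for 2 of 24 immediate early genes with a window and in 1.79% of all windows. Both genes encode inhibitors: Dusp1, a MAP kinase phosphatase, and Btg2, an antiproliferative protein. Their stretches cover the same bases, at chr17:26508523-26508672 and chr1:134079206-134079355 (both minus strand), with the element in capitals, and their levels are compared further on.
Dusp1: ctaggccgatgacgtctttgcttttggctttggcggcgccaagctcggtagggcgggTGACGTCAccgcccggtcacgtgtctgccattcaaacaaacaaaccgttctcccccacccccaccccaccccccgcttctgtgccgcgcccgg
Btg2: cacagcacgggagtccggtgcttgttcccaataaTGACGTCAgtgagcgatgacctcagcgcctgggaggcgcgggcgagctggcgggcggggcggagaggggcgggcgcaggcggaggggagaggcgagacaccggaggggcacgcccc

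The CArG box, which SRF binds, was found for 2 of 24 immediate early genes with a window (Egr2 and Zfp36) and in 1.63% of all windows. The AP-1 element TGANTCA was found for Zfp36l1 and in 7.81% of windows, and the sequence TATAAA for 7 genes, Fos and Cyr61 among them, and in 13.6% of windows. These matches describe letters and do not show binding.

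Cdyl, the targeted gene, which encodes a chromodomain corepressor, was at 6.77, 6.93 and 7.07 scaled RPKM in Cdyl-KO and 7.77, 8.06 and 8.22 in Cdyl-Het. The groups did not overlap, but the log2 change of -0.19 did not pass the threshold (limma, Benjamini-Hochberg over all genes, adjusted p = 0.0702), and a sum over the gene does not show which exons are affected. The steps between low values implied 42.9 to 45.2 M reads per Cdyl-KO library and 34.6 to 44.1 M per Cdyl-Het library. The 36 genes rested on 34 implied reads (Ier3 in Cdyl-KO replicate 2) to 81225 (Hspa8 in Cdyl-Het replicate 3). All 5 gonadal somatic markers were detected, with a summed level of 321 to 359 scaled RPKM in Cdyl-KO and 294 to 338 in Cdyl-Het. Limma called 2 of them higher in Cdyl-KO, Lhx9 and Emx2 (40%, against 4.67% of all genes). The changes of 2 others, Nr5a1 and Gata4, were below 0 without a call. Of 8 germ cell markers looked up, 2 were among the 11736 genes, Kit and Nanos3. They summed to 3.14 to 3.77 in Cdyl-KO and 3.34 to 5.15 in Cdyl-Het. For mesonephric epithelium 4 of 5 markers were found, and summed to 12.7 to 15.5 in Cdyl-KO and 10.3 to 14.95 in Cdyl-Het. Of the 4 mesonephric markers 1, Pax8, was called higher (25%, against 4.67% of all genes). In bulk samples, fewer cells of a type and less RNA per cell cannot be told apart.

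Within each group, the same libraries were high or low in most of the 36 genes. Among Cdyl-KO libraries, 31 of 36 genes were lowest in replicate 2 and 30 were highest in replicate 3. Among Cdyl-Het libraries, 30 were highest in replicate 2. Of all genes, 34.4% were lowest in Cdyl-KO replicate 2, 36.03% were highest in Cdyl-KO replicate 3 and 36.8% were highest in Cdyl-Het replicate 2. Of the 2934 genes in the top level quartile (a mean of at least 12.1 scaled RPKM), 52.2%, 39.2% and 56.4% were. The 29 immediate early genes had median deviations from their group means of 0.01, -0.25 and 0.21 (log2) in the Cdyl-KO libraries and -0.10, 0.15 and -0.04 in the Cdyl-Het libraries. The 7 heat shock genes had 0.03, -0.06 and 0.05 in Cdyl-KO and -0.04, 0.08 and -0.06 in Cdyl-Het, a narrower range. Over all genes every such median lay within 0.01 of 0, which the scaling between libraries largely sets. In the top level quartile the medians were 0.02, -0.03 and 0.01 in Cdyl-KO and 0.01, 0.04 and -0.05 in Cdyl-Het.

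**Figure D1:**
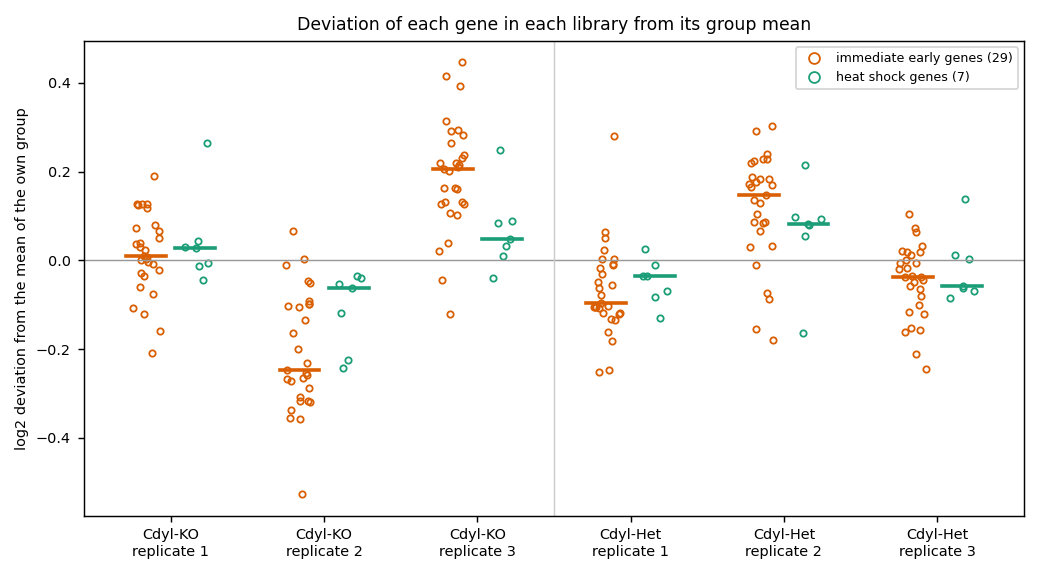
Deviation of each gene in each library from the mean of its own group (log2 scale), for 29 immediate early genes (orange) and 7 heat shock genes (green); bars are medians. Most immediate early genes lie below 0 in Cdyl-KO replicate 2 (median -0.25) and above 0 in Cdyl-KO replicate 3 (0.21) and Cdyl-Het replicate 2 (0.15).

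In 24 of the 36 genes the whole order was shared: Cdyl-KO replicate 3, then 1, then 2, with Cdyl-Het replicate 2 the highest of its group. The order was picked out after the values were seen and has no test. It held in 20 of 29 immediate early genes, Fos, Jun, Egr1, Dusp1 and Btg2 among them, and in 4 of 7 heat shock genes, against 8.81% of all genes and 17.5% of the top level quartile. It also held in 3 of 5 gonadal somatic markers, 3 of 9 ERK feedback genes, 9 of 36 other immediate early genes and 7 of 29 other cytosolic chaperones and heat shock factors. Egr3, Klf6, Ier3, Btg1, Socs3, Gadd45a, Gadd45b, Nfkbia, Cyr61, Dnajb1, Dnaja1 and Hspb1 departed from it. The within-group SD was above the median of genes of similar level in 27 of 29 immediate early genes and 3 of 7 heat shock genes, with medians of 0.201 and 0.0782 on the log2 scale.

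Some other summed levels followed the same libraries and others ran the opposite way. The 5 gonadal somatic markers summed to 343, 321 and 359 scaled RPKM in Cdyl-KO and 306, 338 and 294 in Cdyl-Het, again highest in Cdyl-KO replicate 3 and Cdyl-Het replicate 2 and lowest of the Cdyl-KO libraries in replicate 2. Of 8 erythroid markers looked up, 5 were among the 11736 genes, all globin genes. They summed to 46.2, 49.7 and 132 in Cdyl-KO and 150.1, 223 and 42.2 in Cdyl-Het. Their sum was highest in Cdyl-KO replicate 3 and Cdyl-Het replicate 2, but lowest of the Cdyl-KO libraries in replicate 1. Of 10 endothelial markers looked up, 8 were among the 11736 genes. They summed to 20.7, 23.5 and 20.9 in Cdyl-KO and 35.0, 32.7 and 35.9 in Cdyl-Het. For the 4 mesonephric markers the sums were 12.7, 15.5 and 14.1 in Cdyl-KO and 14.95, 10.3 and 14.0 in Cdyl-Het. Both sums were highest of their group in Cdyl-KO replicate 2 and lowest in Cdyl-Het replicate 2, as were the germ cell sum and Fcer1g. Of 9 macrophage and leukocyte markers looked up, Fcer1g alone was among the 11736 genes. It was at 0.878 to 1.27 in Cdyl-KO and 0.449 to 1.14 in Cdyl-Het. The part of these cell types in the shared order was not tested.

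Between the groups, Jund was the 1 gene of the 36 that passed the test, and it was higher in Cdyl-KO (limma, Benjamini-Hochberg adjusted p under 0.05 over all genes). No member was called lower. Among all 11736 genes 4.67% were called higher and 2.83% lower, 7.50% in all, so 1 of 36 is no more than the background share. At an unadjusted p under 0.05, 13 members were higher and 3 lower (44.4%), against 25.4% of all genes and 30.8% of the top level quartile. The groups did not overlap in 13 of 36 (36.1%, against 31.6% of all genes and 37.2% of the top level quartile). In 8 all Cdyl-KO libraries were above (background 17.1%, and 880 of 2934 genes in the top level quartile). In 5 all were below (background 14.5%, and 210 of 2934).

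The median log2 change was 0.20, with 30 of 36 genes above 0. Across all genes it was -0.00, and in the top level quartile 0.07, where 69.5% of genes were above 0. On the deposited values without further scaling the median of all genes was -0.12, 24 members were above 0, Jund was still called higher, and Ctgf, Hsph1, Ier3 and Myc were called lower. Over all genes that setting called 305 higher and 1558 lower, against 548 and 332 after scaling. Single libraries also moved the count. Without Cdyl-KO replicate 2, limma called 7 members higher: Jund, Fos, Klf2, Klf4, Dusp1, Cyr61 and Hspb1 (adjusted p = 0.0489 for Fos and 0.0314 for Klf4). Without Cdyl-Het replicate 1, Ctgf was called lower beside Jund (adjusted p = 0.0437). Without Cdyl-KO replicate 3, 27 members were above 0 and their median was 0.11.

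**Figure D2:**
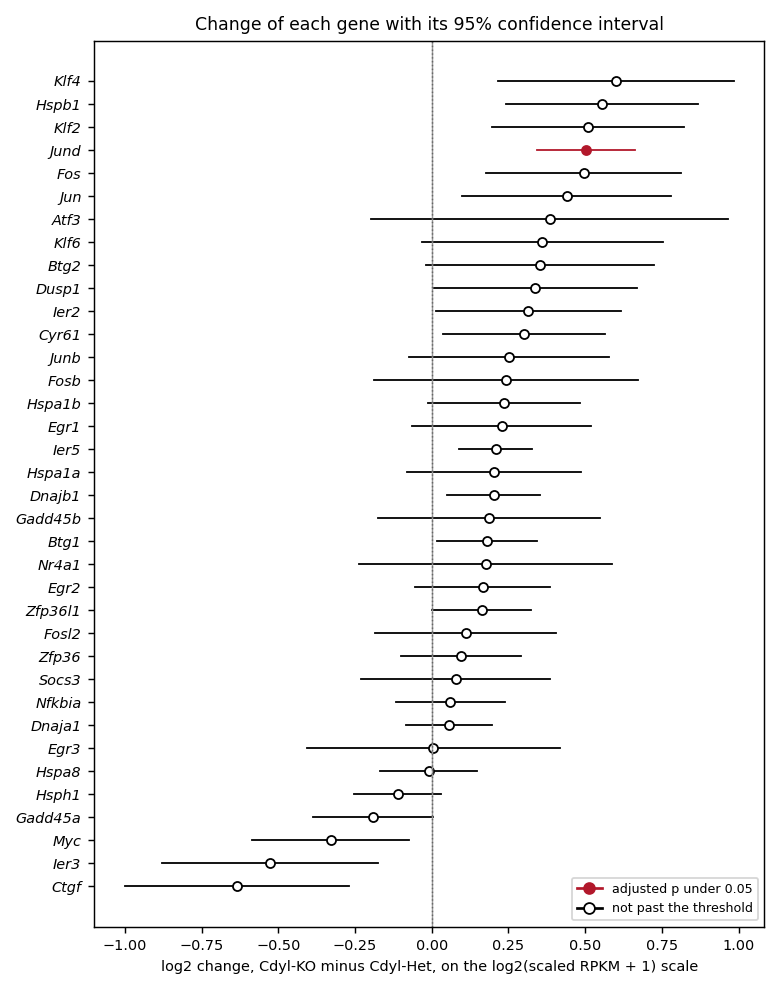
Log2 change of each gene, Cdyl-KO minus Cdyl-Het, with its 95% confidence interval from limma (3 libraries per group); the filled red point passed the threshold and the dotted line marks the median of all genes. Jund is the filled point, at 0.50, with a narrower interval than Klf4 (0.60), Hspb1 (0.55) or Fos (0.49).

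Jund encodes JunD, the AP-1 subunit with steady expression in many cells (chromosome 8, 70698949 to 70700616, mm10). It was at 113, 109 and 127 scaled RPKM in Cdyl-KO and 80.9, 83.3 and 80.5 in Cdyl-Het. Every Cdyl-KO library was above every Cdyl-Het library. The means were 116 ± 9.29 in Cdyl-KO and 81.6 ± 1.49 in Cdyl-Het (SD, n = 3 each), a log2 change of 0.50 (SE 0.07, limma adjusted p = 0.00992), and the call held in all 12 alternatives (0.00731 to 0.0444). Its exon overlaps Gm11175 on the opposite strand and the strand setting of the counts was not given, so reads of the 2 genes cannot be told apart. The same holds for 9 further members that overlap a gene on the opposite strand: Jun, Junb, Dusp1, Zfp36, Zfp36l1, Gadd45a, Ctgf, Hspa1a and Dnaja1. Junb overlaps Prdx2, which was called higher (64.5 ± 3.38 scaled RPKM in Cdyl-KO and 50.7 ± 1.84 in Cdyl-Het, SD, n = 3 each), and its part in the level of Junb was not tested. Hspa8 and Dnaja1 hold small RNA genes on their own strand.

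Other AP-1 genes also had changes above 0 without a call, and the median of the 7 was 0.38. Fos (chromosome 12, 85473890 to 85477273), the partner of JUN proteins, was at 230.0, 193 and 270.0 scaled RPKM in Cdyl-KO and 149, 184 and 155 in Cdyl-Het. The groups did not overlap, with the lowest Cdyl-KO and the highest Cdyl-Het value both in replicate 2. The log2 change was 0.49 (SE 0.13, limma adjusted p = 0.0719). Jun was at 228, 183 and 256 in Cdyl-KO and 150.5, 189.9 and 149 in Cdyl-Het, and here Cdyl-KO replicate 2 was below Cdyl-Het replicate 2 (log2 change 0.44, adjusted p = 0.114). Fosb was at 68.8, 51.0 and 80.5 in Cdyl-KO and 46.3, 65.5 and 55.9 in Cdyl-Het, which overlapped widely. Atf3, a stress-induced factor, had the widest spread of the 36, at 25.8, 16.6 and 33.6 in Cdyl-KO and 17.7, 23.0 and 15.4 in Cdyl-Het, and the 95% interval of its change was -0.20 to 0.97. Junb and Fosl2 had log2 changes of 0.25 and 0.11 (adjusted p = 0.307 and 0.624), and that of Fosl2 was -0.02 without scaling.

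The EGR zinc finger factors and the nuclear receptor Nr4a1 overlapped between groups in all 4 genes. Egr1, a common readout of ERK signalling, was at 64.9, 63.0 and 86.3 scaled RPKM in Cdyl-KO and 55.9, 64.8 and 60.2 in Cdyl-Het. Cdyl-KO replicate 3 stood above the rest, and the log2 change of 0.23 had a 95% interval of -0.06 to 0.52. Nr4a1 was at 24.1, 20.2 and 33.7 in Cdyl-KO and 20.3, 25.3 and 21.8 in Cdyl-Het (limma adjusted p = 0.575); without Cdyl-KO replicate 3 its change was -0.02. Egr2 and Egr3 were low, at 2.49 ± 0.244 and 3.06 ± 1.09 in Cdyl-KO and 2.11 ± 0.224 and 2.95 ± 0.211 in Cdyl-Het (SD, n = 3 each). The change of Egr3 was 0.01, and -0.20 without Cdyl-KO replicate 3.

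Klf4 and Klf2, zinc finger factors known from epithelium and endothelium, had estimates as large as that of Jund and wider errors. Klf4 was at 60.9, 43.3 and 65.5 scaled RPKM in Cdyl-KO and 33.9, 42.6 and 33.5 in Cdyl-Het (log2 change 0.60, SE 0.16, limma adjusted p = 0.0726). Its groups were separate, but Cdyl-KO replicate 2 and Cdyl-Het replicate 2 lay side by side. Klf2 was at 32.4, 24.5 and 32.5 in Cdyl-KO and 21.4, 22.7 and 17.5 in Cdyl-Het, also without overlap (log2 change 0.51, adjusted p = 0.0639). The 8 endothelial markers analysed summed to 20.7 to 23.5 in Cdyl-KO and 32.7 to 35.9 in Cdyl-Het. Of them 4 were called lower (50%, against 2.83% of all genes), and their part in the levels of Klf4 and Klf2 was not tested. Klf6, a related factor, was at 34.9, 24.3 and 33.4 in Cdyl-KO and 21.3, 29.01 and 21.01 in Cdyl-Het, which overlapped. Myc, a factor of cell growth, had the opposite sign: 5.58, 4.99 and 6.20 in Cdyl-KO and 6.27, 8.40 and 7.22 in Cdyl-Het, without overlap (log2 change -0.33, adjusted p = 0.115).

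The immediate early response genes went in both directions without a call. Ier5, whose protein acts on HSF1, was the tightest of the 36, at 12.8, 12.3 and 13.1 scaled RPKM in Cdyl-KO and 10.9, 11.2 and 10.6 in Cdyl-Het. Its groups did not overlap, and the change of 0.21 was just short of the threshold (limma adjusted p = 0.0531, 0.0427 to 0.268 over the alternatives). Ier2, a nuclear protein, was at 76.8, 64.2 and 87.3 in Cdyl-KO and 59.2, 68.9 and 54.4 in Cdyl-Het, with Cdyl-KO replicate 2 inside the Cdyl-Het range. Ier3, a regulator of cell survival, was the lowest of the 36, at 1.19, 0.723 and 1.39 in Cdyl-KO and 2.10, 1.69 and 2.22 in Cdyl-Het. That corresponds to 56, 34 and 66 implied reads in Cdyl-KO and 86, 78 and 118 in Cdyl-Het. All Cdyl-KO values were below all Cdyl-Het values (log2 change -0.53, adjusted p = 0.0807).

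**Figure D3:**
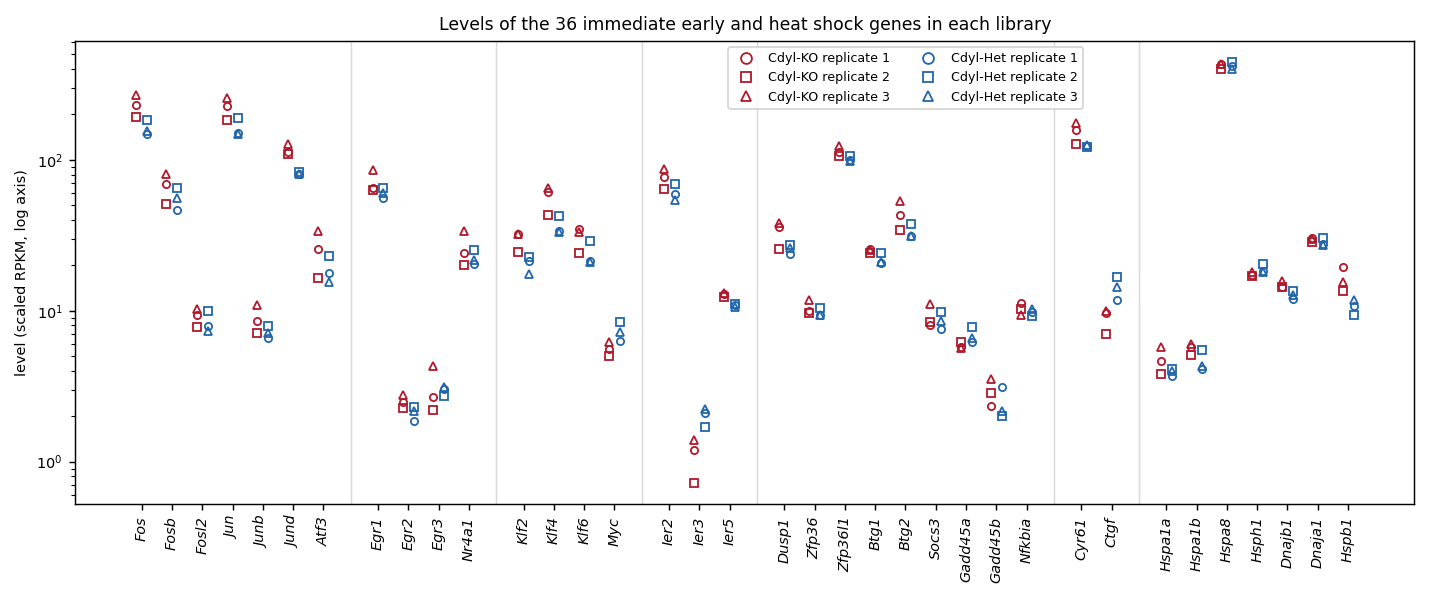
Level of each of the 36 genes in each library (scaled RPKM, log axis), grouped by role; red marks Cdyl-KO and blue, to its right, Cdyl-Het, with one marker shape per replicate number. The groups overlap in 23 of the 36 genes, and the red square (Cdyl-KO replicate 2) is the lowest red marker in 31.

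Among the 9 feedback regulators limma called 0, against 7.50% of all genes, and 3 had an unadjusted p under 0.05 (33.3%, against 25.4%). Dusp1 was at 35.8, 25.7 and 38.0 scaled RPKM in Cdyl-KO and 23.8, 27.3 and 26.1 in Cdyl-Het. Btg2 was at 42.9, 34.1 and 53.4 in Cdyl-KO and 31.1, 37.8 and 31.5 in Cdyl-Het. In both genes Cdyl-KO replicate 2 lay within the Cdyl-Het range and the other Cdyl-KO libraries lay above it (log2 changes 0.34 and 0.35, adjusted p = 0.188 and 0.218). The same held for Jun and Zfp36l1, whose windows had no match to the cAMP response element printed above for Dusp1 and Btg2. Zfp36l1 and Zfp36, which promote the decay of short-lived mRNAs, had means of 114 ± 8.32 and 10.5 ± 1.16 in Cdyl-KO and 102 ± 4.21 and 9.73 ± 0.570 in Cdyl-Het (SD, n = 3 each). Btg1, a relative of Btg2, was at 25.5, 24.0 and 25.3 in Cdyl-KO and 20.7, 24.1 and 20.98 in Cdyl-Het. Socs3, an inhibitor of cytokine signalling, and Nfkbia, the inhibitor of NF-kappaB, had log2 changes of 0.08 and 0.06, with 95% intervals of -0.23 to 0.39 and -0.12 to 0.24. The growth arrest genes differed in sign. Gadd45a was at 5.76, 6.19 and 5.65 in Cdyl-KO and 6.21, 7.79 and 6.60 in Cdyl-Het, without overlap (log2 change -0.19, adjusted p = 0.206), and Gadd45b was at 2.35, 2.84 and 3.51 in Cdyl-KO and 3.13, 2.01 and 2.17 in Cdyl-Het, with overlap.

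Ctgf and Cyr61 encode secreted CCN proteins and are both targets of the coactivator YAP, and their changes had opposite signs. Ctgf (chromosome 10, 24595442 to 24598683) was at 9.71, 7.02 and 9.96 scaled RPKM in Cdyl-KO and 11.8, 16.8 and 14.4 in Cdyl-Het. Every Cdyl-KO library was below every Cdyl-Het library (log2 change -0.64, SE 0.16), and the limma adjusted p was 0.0535, or 0.0220 to 0.155 over the alternatives, 4 of which called it lower. Cyr61 was at 157, 128 and 177 in Cdyl-KO and 123, 123 and 125 in Cdyl-Het. The Cdyl-Het libraries were nearly level while the Cdyl-KO libraries spread out (log2 change 0.30, adjusted p = 0.151). Of 12 other YAP and TEAD genes, with a median of -0.01, 0 were called lower and 2 higher (16.7%, against 4.67% of all genes). These were Amotl2, at 38.5 ± 2.78 in Cdyl-KO and 30.6 ± 1.87 in Cdyl-Het, and Ajuba, at 12.9 ± 0.190 in Cdyl-KO and 10.2 ± 0.578 in Cdyl-Het (SD, n = 3 each; adjusted p = 0.0442 and 0.0231). Each kept its call with 1 of the 6 libraries left out and lost it with the other 5 (up to 0.126 and 0.0806).

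Of the 7 heat shock genes limma called 0, against 7.50% of all genes. An unadjusted p under 0.05 was found for 2 of them (28.6%, against 25.4% of all genes). Hspb1 (chromosome 5, 135887919 to 135889563) was at 19.4, 13.5 and 15.5 scaled RPKM in Cdyl-KO and 10.8, 9.31 and 11.7 in Cdyl-Het, without overlap. Its log2 change of 0.55 (SE 0.13) was just short of the threshold (adjusted p = 0.0511, 0.0367 to 0.133 over the alternatives). Of its 50-base transcript stretches, 48.8% also occur in Hsp25-ps1, so its level is uncertain. Dnajb1, an HSP40 co-chaperone induced by HSF1, was at 14.3, 14.3 and 15.7 in Cdyl-KO and 11.9, 13.5 and 12.7 in Cdyl-Het, also without overlap (log2 change 0.20, adjusted p = 0.108).

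The inducible HSP70 genes were low beside the constitutive one. Hspa1a was at 4.64, 3.79 and 5.73 scaled RPKM in Cdyl-KO and 3.69, 4.11 and 3.96 in Cdyl-Het, and Hspa1b was at 5.73, 5.07 and 6.01 in Cdyl-KO and 4.11, 5.49 and 4.28 in Cdyl-Het. Both overlapped between groups (limma adjusted p = 0.340 and 0.214). They share 60.3% and 62.3% of their 50-base stretches with another gene, so how reads were divided between them is uncertain. Hspa8, which encodes the constitutive HSC70, was at 429, 402 and 429 in Cdyl-KO and 419, 447 and 403 in Cdyl-Het, and its change had a 95% interval of -0.17 to 0.15. Its co-chaperone Dnaja1 had overlapping groups, at 29.5 ± 1.04 in Cdyl-KO and 28.4 ± 1.69 in Cdyl-Het (SD, n = 3 each). Of the 50-base stretches of Hspa8 and Dnaja1, 38.6% and 11.9% also occur in other genes, so these levels are uncertain too. Hsph1, which encodes the exchange factor HSP110, was at 17.2, 16.98 and 18.0 in Cdyl-KO and 18.4, 20.3 and 18.0 in Cdyl-Het, just without overlap (log2 change -0.11, adjusted p = 0.304).

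Genes of the same pathways outside the 36 were counted in the same fit. Of 36 other immediate early genes, 7 were called higher and 2 lower, with a median log2 change of 0.08, against 4.67% of all genes called higher and 2.83% called lower. The shared library order held in 9 of them (25.0%), against 8.81% of all genes. Arc, an immediate early gene known from neurons, was at 8.66, 8.04 and 12.4 scaled RPKM in Cdyl-KO and 3.06, 3.42 and 3.79 in Cdyl-Het. All Cdyl-KO libraries were far above all Cdyl-Het libraries (log2 change 1.26, SE 0.15, limma adjusted p = 0.00756, 0.00506 to 0.0379 over the alternatives). Ppp1r15a, a stress-induced phosphatase subunit, rose to 24.8, 21.6 and 23.8 in Cdyl-KO, against 15.1, 17.6 and 18.3 in Cdyl-Het. Pim3, a kinase, and Tob1, an antiproliferative protein, were called higher at 12.0 ± 0.855 and 18.1 ± 1.39 in Cdyl-KO and 8.42 ± 0.602 and 13.3 ± 1.26 in Cdyl-Het (SD, n = 3 each). The repressor gene Bhlhe40 fell to 3.15, 3.08 and 3.39 in Cdyl-KO, against 4.26, 5.86 and 5.45 in Cdyl-Het, and Nfkbiz, a cofactor of NF-kappaB, fell to 2.43, 2.68 and 3.37 in Cdyl-KO, against 4.42, 4.41 and 4.46 in Cdyl-Het. Ier5l, Tob2 and Rgs2 were the others called higher. With a library left out 1 to 6 were called, and over the alternatives the adjusted p reached 0.0575 for Pim3, 0.0877 for Tob1, 0.0872 for Ppp1r15a, 0.0986 for Bhlhe40 and 0.0893 for Nfkbiz.

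Of 24 kinases and factors upstream of immediate early genes, 1 was called higher and 1 lower (8.33%, against 7.50% of all genes). Their median was 0.04. Srf was at 21.4, 19.4 and 22.0 scaled RPKM in Cdyl-KO and 17.5, 21.5 and 19.2 in Cdyl-Het, with overlap (limma adjusted p = 0.477); its change of 0.11 was -0.03 without scaling. Mkl1, a coactivator of SRF, was called higher at 8.68 ± 0.323 in Cdyl-KO and 7.18 ± 0.166 in Cdyl-Het, and Elk3, an ETS partner of SRF, was called lower at 5.48 ± 0.483 in Cdyl-KO and 7.66 ± 0.487 in Cdyl-Het (SD, n = 3 each). Mkl1 lost its call with each library left out, and Elk3 with all but Cdyl-Het replicate 1 (up to 0.170 and 0.0833).

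The ERK feedback genes, which are transcribed when FGF and ERK signalling is active, had the other sign. Of 9 genes 5 were called lower (55.6%, against 2.83% of all genes) and 0 higher. All 9 were below 0, as were 5886 of all 11736 genes, and the median of the 9 was -0.41. Etv4, an ETS factor, fell to 1.05, 1.42 and 2.03 scaled RPKM in Cdyl-KO, against 5.08, 5.74 and 5.72 in Cdyl-Het (log2 change -1.40, limma adjusted p = 0.00415). Spry4, an inhibitor of ERK signalling, fell to 2.22, 2.42 and 3.18 in Cdyl-KO, against 5.21, 7.31 and 5.95 in Cdyl-Het (log2 change -0.99, adjusted p = 0.0103). Etv5, Dusp6 (an ERK phosphatase) and Spry2 fell by 0.85, 0.44 and 0.41 on the log2 scale. With a library left out 2 to 5 were called; the adjusted p reached 0.0644 for Etv5, 0.0664 for Dusp6 and 0.142 for Spry2 over the alternatives, and Etv4 and Spry4 kept their calls in the 11 alternatives in which they were tested. The difference between these genes and the immediate early genes was not tested.

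Among 29 other cytosolic chaperones and heat shock factors, with a median of 0.04, 0 were called lower and 1 higher (3.45%, against 4.67% of all genes). It was Hspa2, an HSP70 relative needed in spermatogenesis, at 11.6, 12.2 and 12.5 scaled RPKM in Cdyl-KO and 8.39, 9.75 and 7.597 in Cdyl-Het (log2 change 0.46, limma adjusted p = 0.0246, up to 0.0730 over the alternatives). Hsf1, the main regulator, was at 4.99, 4.75 and 5.48 in Cdyl-KO and 5.59, 5.99 and 5.98 in Cdyl-Het, without overlap (log2 change -0.18, adjusted p = 0.148, 0.0235 to 0.308 over the alternatives), and was called lower without scaling. Hsf2 was at 6.49, 6.53 and 6.50 in Cdyl-KO and 6.35, 6.66 and 5.97 in Cdyl-Het (adjusted p = 0.735; its sign turned without scaling). Hsp90ab1, the constitutive HSP90, was at 1237, 1179 and 1258 in Cdyl-KO and 1093, 1099 and 960.4 in Cdyl-Het, without overlap or a call (adjusted p = 0.145).

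**Figure D4:**
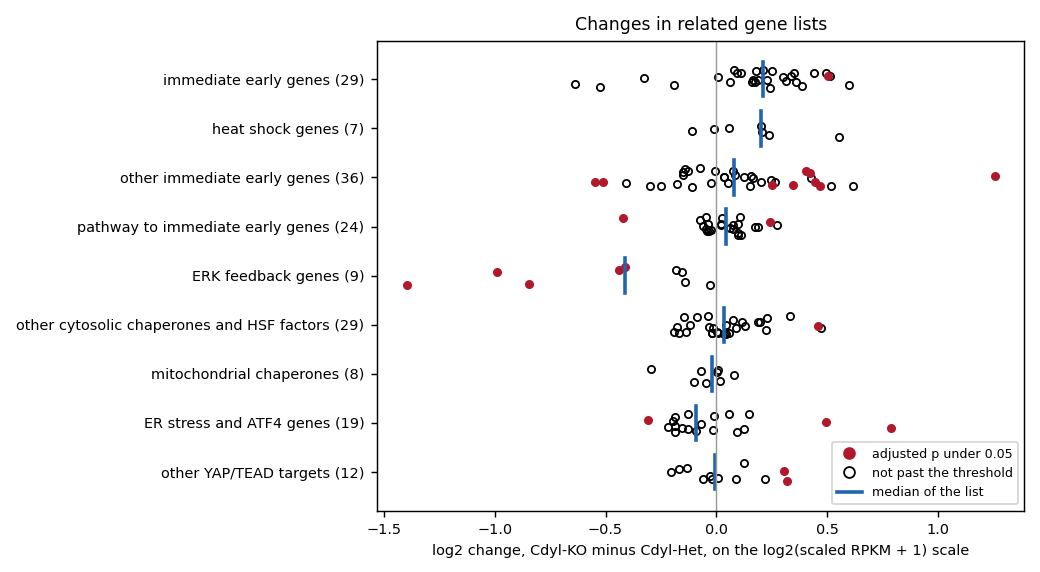
Log2 change of each gene, Cdyl-KO minus Cdyl-Het, in the 29 immediate early and 7 heat shock genes and in 7 lists of related genes (number of genes in brackets); filled red points passed the threshold and blue bars are medians. All 9 ERK feedback genes lie below 0 (median -0.41), and 25 of the 29 immediate early genes lie above 0 (median 0.21).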

How the data were processed

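Total RNA of hCD271-positive cells was sequenced from SMARTer Stranded Total RNA libraries, per the labels' protocols. Per the submitters' processing notes, the tools were STAR and featureCounts 1.6.4 (Subread), with mm10. The sources used here do not give the annotation, strand setting, gene filter or step from reads to values. The deposited values have no header or stated unit, and were taken as RPKM from their behaviour: multiplied by GENCODE M21 exon length, 85.2% to 87.0% of values up to 200 reads in single-exon genes were whole multiples of 1 step (tolerance 0.02), which gave the implied depths. Of whole values 64.3% to 70.9% were even, so both reads of a pair may have been counted. Of the members 27 had whole reads in all libraries (tolerance 0.1). Jund, the called member, did not, nor did Jun, Klf4, Dusp1, Btg1, Hspa1a, Hspa1b, Hspa8 and Dnaja1. The implied reads of these genes are therefore less certain. The lowest value, over genes, of the higher group mean was 1.005 RPKM, and all 36 members reached it in both groups. Positions are from GENCODE M21 (GRCm38, mm10), and exons of 11 members overlap another gene.

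Values were scaled by a trimmed mean of log ratios against Cdyl-Het replicate 1 (30% of ratios and 5% of levels trimmed at each end) and fitted as log2(scaled RPKM + 1) in limma 3.58.1 (R 4.3.3) with group alone and a mean-variance trend. Benjamini-Hochberg adjustment ran over the 11736 genes, threshold 0.05. Changes on this scale understate those of low genes. The count test planned in case of raw counts did not apply. Tested on simulated data for this comparison (5 sets of 11736 genes, 200 changed), the fit recovered 81.8% of log2 changes of 0.5 and 96.7% of 1, with 5.70% of calls false. The simulated noise was independent between genes and libraries, and only genes above a level cutoff were changed. These shares therefore do not cover deviations shared among genes, such as the library order above. Recovery at the spread of the 29 immediate early genes was not tested. Their median within-group SD was 0.201 on the log2 scale, against 0.0951 over all genes.

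The members and lists were chosen with earlier results of these data known. Named were all members, the called genes of each other list (at most 6, by smallest p) and Srf, Hsf1, Hsf2, Hspa5 and Hsp90ab1; Ier5l, Tob2 and Rgs2 were named after their values were seen. The 12 alternatives were no scaling, quantile normalization, a pseudocount of 0.1, a mean of at least 5 RPKM, a replicate block, each of the 6 libraries left out and, chosen after seeing the data, scaling against Cdyl-KO replicate 1.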

Additional observations from a re-analysis of the deposited data

How the results depend on the processing

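Of the 36 members, 17 kept direction and side of the threshold in every alternative run, 11 passed it in at least 1 alternative and 8 changed sign in at least 1; the causes were not tested. Without further scaling 1863 genes were called (305 higher, 1558 lower), 4 members were called lower, and list counts were 8 ERK feedback, 7 cytosolic chaperone, 1 mitochondrial chaperone and 10 ER stress and ATF4 genes; log2 changes turned to -0.020 (Fosl2), -0.10 (Egr3), -0.039 (Zfp36), -0.053 (Socs3), -0.071 (Nfkbia), -0.085 (Dnaja1), -0.032 (Srf) and -0.091 (Hsf2). Quantile normalization called 1 member lower (Ctgf), 3 cytosolic and 1 mitochondrial chaperone and 7 ER stress and ATF4 genes, with Dnaja1 at -0.035. A mean of at least 5 RPKM left 31 members, called 4 higher (Hspb1, Ier5, Jund, Klf2) and 1 lower (Ctgf), 202 genes lower in all, 3 ERK feedback genes and 2 cytosolic chaperones. Scaling against Cdyl-KO replicate 1 called 2 members higher (Ier5, Jund). With a pseudocount of 0.1 Egr3 was at -0.0038.

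With the replicate number as a block, 337 genes were called (209 higher, 128 lower), with Jund as the 1 member. Among the lists 3 other immediate early genes were called, and 0 pathway, 0 cytosolic chaperone and 0 YAP/TEAD genes. Correlations of deviations (across genes) were -0.05, -0.27 and -0.05 between same-numbered libraries and -0.14 to 0.22 between the others. These values show no pairing by number, but cannot tell whether same-numbered samples shared a litter or day.

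With a library left out, 253 to 647 genes were called (197 to 387 higher, 56 to 260 lower; fewest without Cdyl-Het replicate 3), 1 to 7 members higher and 0 to 1 lower, 1 to 6 other immediate early, 0 to 1 pathway, 2 to 5 ERK feedback, 0 to 1 cytosolic chaperone, 1 to 3 ER stress and ATF4 and 0 to 1 YAP/TEAD genes. Log2 changes then ran over -0.20 to 0.16 for Egr3, -0.021 to 0.33 for Nr4a1, -0.054 to 0.16 for Socs3, -0.044 to 0.031 for Hspa8 and -0.00038 to 0.068 for Hsf2. Depth limits Ier3 most, at 34 to 118 implied reads; such counts cover counting error only.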

Other observations

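Stress genes of other compartments were counted in the same fit. Of 19 genes of ER stress and the ATF4 response, limma called 2 higher and 1 lower in Cdyl-KO (Benjamini-Hochberg over all genes, of which 4.67% were called higher and 2.83% lower), with a median log2 change of -0.09. Of the 19, 6 were above 0 and 13 below. An unadjusted p under 0.05 was found for 8 (42.1%, against 25.4% of all genes), 2 of them higher and 6 lower. Atf4, the central factor of the amino acid response, rose to 63.2, 56.9 and 59.7 scaled RPKM in Cdyl-KO, against 46.3, 41.0 and 39.6 in Cdyl-Het. Asns, the asparagine synthetase that ATF4 induces, rose to 33.9, 30.7 and 29.1 in Cdyl-KO, against 20.7, 17.7 and 15.03 in Cdyl-Het, and kept its call in all 12 alternatives (adjusted p 0.00766 to 0.0499). Dnajc3, an ER co-chaperone, fell to 8.22, 7.95 and 7.14 in Cdyl-KO, against 9.10, 10.4 and 10.04 in Cdyl-Het. Hspa5, the ER chaperone BiP, was at 117, 114 and 113 in Cdyl-KO and 122, 141 and 129 in Cdyl-Het without overlap and without a call (adjusted p = 0.133, 0.0235 to 0.271 over the alternatives, 2 of which called it lower). Over the alternatives the adjusted p reached 0.0541 for Atf4 and 0.143 for Dnajc3, and with a library left out 1 to 3 of the 19 were called. Of 8 mitochondrial chaperone genes limma called 0, and 1 had an unadjusted p under 0.05 (12.5%, against 25.4% of all genes). The library order shared by 24 of the 36 immediate early and heat shock genes held in 1 of the 19 ER stress and ATF4 genes and in 0 of the 8 mitochondrial chaperone genes, against 8.81% of all genes.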
